A study of Mus musculus with 9 samples.

Results

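The comparison described here set ribosome footprints of the HD-homo striatal cell line (STHdhQ111/Q111, homozygous for a knocked-in mutant Htt exon 1 with 111 glutamine repeats) against those of the control line (STHdhQ7/Q7, whose knocked-in Htt exon 1 is wild-type with 7 repeats). Its members were all rows of the deposited gene count table with at least 10 counts in 3 or more of the 6 libraries of these lines, which left 12417 of 36410 rows. Of these rows, 270 reached the minimum only through the control libraries and 327 only through the HD-homo libraries, so a gene of either kind had to differ between the lines. The series also held a heterozygous line, HD-het (STHdhQ7/Q111), whose values are given beside those of the members. Each line had 3 libraries, all lines carried the C57/BL6 strain label, and cells of every line were treated with cycloheximide for 10 min before footprints of 26 to 32 nucleotides were taken from the 80S monosome fraction. Each genotype was represented by 1 immortalised line, so the effect of the repeat and the history of the line cannot be told apart. The labels do not say that the 3 libraries of a line came from separate cultures, and the p-values then measure only the spread between these libraries.

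Huntington disease is caused by an expanded glutamine tract in huntingtin, and the medium spiny neurons of the striatum are the cells it harms most. STHdh lines were derived from embryonic striatal precursors of knock-in mice and immortalised, and they are used as dividing stand-ins for striatal cells. Ribosome profiling sequences the stretches of mRNA covered by ribosomes, so a gene's footprint count follows both the amount of its mRNA and the number of ribosomes on each mRNA. Matched RNA-seq was not analysed here, and these quantities cannot be told apart in any value below.

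The 6 libraries held between 22504543 and 41888701 counts. Values are given as CPM, each gene's counts relative to the library's total after scaling by edgeR's TMM factors. The spread between replicates, as a biological coefficient of variation, was 8.83% in the control line and 16% in the HD-homo line, so the HD-homo means are the less precise. Htt itself, the gene that carries the repeat, had 28.1, 29.9 and 28 CPM in the control libraries and 5.76, 7.65 and 6.36 CPM in the HD-homo libraries. The HD-homo libraries were all below the control libraries, and the log2 fold change was -2.12 ± 0.11 (SE, n = 3 per line, edgeR adjusted p = 6.29e-08). The HD-het mean was 20.5 ± 0.843 CPM (SD, n = 3).

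The striatal label was checked against defining markers. The dopamine receptors Drd1 and Drd2, which mark medium spiny neurons, had 0 counts in every library of both lines, which at a floor of 3 counts per library allows up to 0.0993 CPM in control and 0.110 CPM in HD-homo. Pdyn and Gad1 were also below that floor. Of 17 medium spiny neuron markers only 6 passed the filter, of which Foxp1 and Penk were higher and Meis2 lower in HD-homo. The Penk libraries overlapped, and it did not pass when replicate 1 or 3 of control (adjusted p = 0.10 and 0.051) or replicate 3 of HD-homo (0.12) was left out, or with only the 6 libraries compared (0.057). Ppp1r1b, which encodes DARPP-32, had means of 12 and 10.5 CPM with overlapping libraries. Of 13 general neuronal markers 7 were tested, 4 lower (Stmn2, Nefm, Gap43 and Elavl4) and none higher, with a median log2 fold change of -1.85. That median is the value of Nefl, which did not pass, and the median ran from -2.36 to -0.81 under other settings. The summed level of these markers was 224 to 266 CPM in control and 149 to 158 CPM in HD-homo. Elavl4 did not pass when replicate 2 of control or replicate 1 of HD-homo was left out, nor with DESeq2 or limma-voom. In the same list Tubb3 (95 to 106 CPM in control, 98.9 to 105 CPM in HD-homo) and Map2 (46.3 and 44.1 CPM) did not pass the threshold, and Rbfox3, Snap25, Syt1 and Syp were at or near 0. Of 10 microglia or macrophage markers 3 were tested, Csf1r was higher (from 0.338 to 1.05 CPM) and none lower, and Aif1, Cx3cr1, Itgam and Tyrobp had no counts in either line.

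A large share of the genes tested differed between the lines. At an adjusted p under 0.05, 2919 genes (23.5% of rows tested) were higher and 2801 (22.6%) lower in HD-homo, 46.1% in either direction, with a median log2 fold change over all rows of 0.02. A change of at least 2-fold beside the p-value was met by 1103 genes (8.88%) upward and 995 (8.01%) downward. The 3 libraries of a line did not overlap those of the other in 28.5% of rows upward and 27.3% downward. The interferon-stimulated genes were a small part of this: 137 of 201 listed genes were tested, 115 were higher and 7 lower, and 40 passed the filter only through HD-homo. Their summed level was 1492 to 1533 CPM in control and 3383 to 5156 CPM in HD-homo. Outside that list 2803 genes were still higher and 2794 lower, and 1006 and 991 of them by at least 2-fold. The rest of the text concerns these genes. List counts below are to be read beside the shares over all rows tested, 23.5% higher and 22.6% lower.

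**Figure D1:**
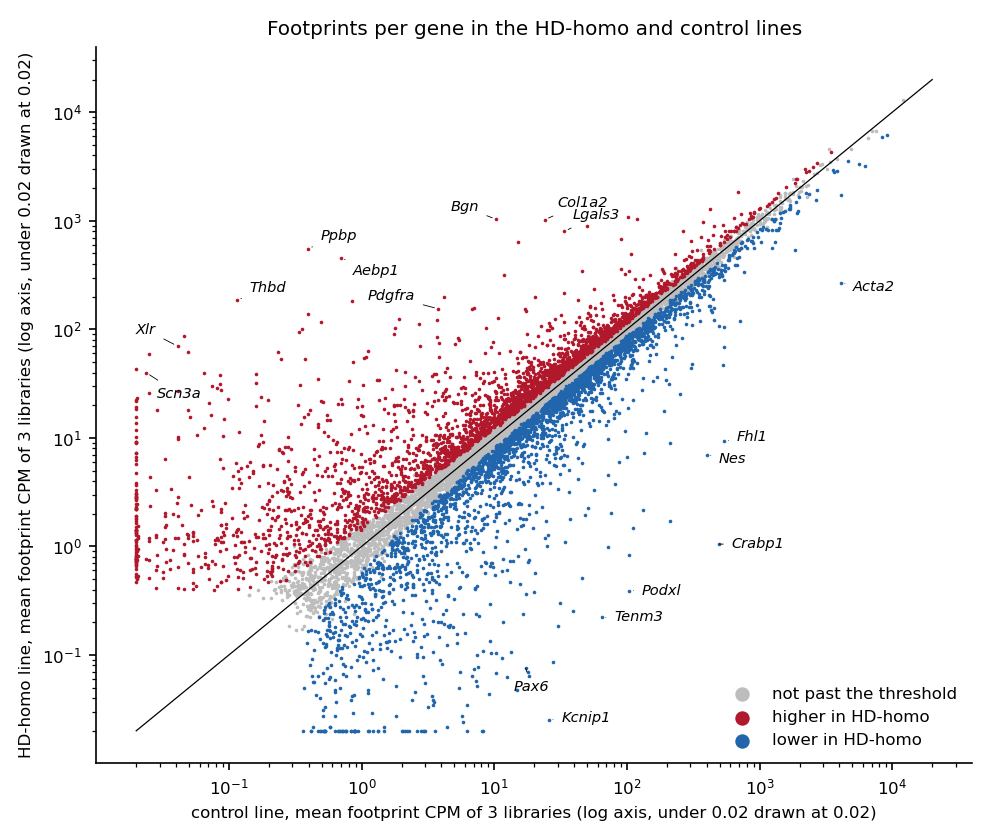
Mean footprint CPM of each of the 12417 rows in the control line (x) and the HD-homo line (y), both on log axes with means under 0.02 drawn at 0.02, coloured by the edgeR call at an adjusted p under 0.05. The black line marks equal levels, and named genes such as Thbd (0.115 against 186 CPM) and Crabp1 (495 against 1.05 CPM) lie far from it.

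The largest rises by ratio were genes that the control line hardly translated. Thbd, the thrombin receptor thrombomodulin (GRCm38.p6, chr2:148404471-148408188), had 0.114, 0.119 and 0.112 CPM in control and 201, 126 and 231 CPM in HD-homo. Every HD-homo library was far above every control library, the means differed 1614-fold, and the log2 fold change was 10.60 ± 0.44 (SE, adjusted p = 9.83e-09). Ppbp, a CXC chemokine best known from platelets, had 0.266, 0.616 and 0.300 CPM in control and 468, 338 and 855 CPM in HD-homo, a 1405-fold difference of means. Selp, the adhesion receptor P-selectin, had 4 counts over the control libraries together and 46.4, 44.6 and 168 CPM in HD-homo, with replicate 3 well above the others. The ratio of summed counts, scaled by library size, was 1858, with an exact 95% interval of 725 to 6820 that covers counting error only, as do the intervals below. These genes are active in platelets and endothelium. Of 9 endothelial markers 4 were tested, Vwf higher (from 0.0774 to 0.400 CPM, tested only through HD-homo), Flt1 lower and Cdh5 and Kdr not past the threshold, and Cldn5 and Emcn had no counts in either line. Pecam1 was at 0 in control and 0.101 CPM in HD-homo, and the summed level of these markers was 77.9 to 114 CPM in control and 6.13 to 10.8 CPM in HD-homo, since Flt1, a VEGF receptor, fell from 100 to 6.68 CPM.

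Xlr, an X-linked gene of a lymphoid-regulated family, also had 4 counts in control and reached 57.0, 85.6 and 67.4 CPM in HD-homo, a ratio of 1631 (95% interval 637 to 5988). Scn3a, a voltage-gated sodium channel subunit, went from 0, 0.0711 and 0 CPM to 31.5, 37.7 and 50.7 CPM, with 3 counts in control and a ratio of 1221 (95% interval 417 to 5922). For Selp, Xlr and Scn3a the HD-het mean was also under 1 CPM, and HD-homo exceeded HD-het (adjusted p at most 3.2e-06). Of all rows tested, 66.8% differed between these mutant lines in either direction. A further set was high in both mutant lines. Aebp1, a collagen-binding secreted protein, had 0.696, 268 and 453 CPM in control, HD-het and HD-homo, and its annotation overlaps Pold2. Mfsd10, a membrane transporter, had 0.0647, 18.3 and 40.0 CPM, and the laminin chain Lama4 0.0851, 20.0 and 37.6 CPM. Bhlhb9, of the ARMCX and GPRASP family, had 0.0204, 26.1 and 23.1 CPM in the same order. HD-homo exceeded HD-het for Aebp1 (adjusted p = 0.0094) and Mfsd10 (0.00018), while the difference did not pass for Lama4 (0.064) or Bhlhb9 (0.21).

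The largest falls by ratio were of genes for development and the cell surface. Crabp1, which binds retinoic acid in the cytoplasm, had 513, 463 and 508 CPM in control and 1.05, 0.952 and 1.15 CPM in HD-homo. The control libraries lay together far above the HD-homo libraries, and the log2 fold change was -8.88 ± 0.13 (SE, adjusted p = 1.12e-11). Kcnip1, a calcium sensor that partners potassium channels, had 24.7, 25.5 and 27.2 CPM in control and 0, 0.0761 and 0 CPM in HD-homo, where it had 2 counts in all. Control over HD-homo was 1094 (95% interval 303 to 9039). Tbx20, a T-box transcription factor, had 27.6 ± 1.60 CPM in control (SD, n = 3) and 7 counts in HD-homo, a ratio of 334 (95% interval 162 to 831). HD-het lay between for these genes, at 94.3, 3.35 and 7.93 CPM. Podxl, a sialomucin of the cell surface, likewise had 104, 26.5 and 0.392 CPM in control, HD-het and HD-homo.

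Other genes were near 0 in HD-homo and present in both control and HD-het. Tenm3, a teneurin adhesion protein of wiring neurons, had 68.8, 70.4 and 54.4 CPM in control and 0.0277, 0.419 and 0.221 CPM in HD-homo, while HD-het had a mean of 88.5. The same held for the LIM homeobox gene Lhx1 (18.2, 21.9 and 0.0635 CPM in control, HD-het and HD-homo), the RNA-binding protein gene Khdrbs3 (17.8, 19.3 and 0.0692) and the calcium store protein gene Casq1 (30.4, 27.9 and 0.185). HD-homo was below HD-het for each of them (adjusted p at most 6.8e-08). Pax6, a homeobox factor of neural progenitors whose annotation overlaps Elp4, had 17, 16 and 18.8 CPM in control and 0.138, 0 and 0.0883 CPM in HD-homo.

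**Figure D2:**
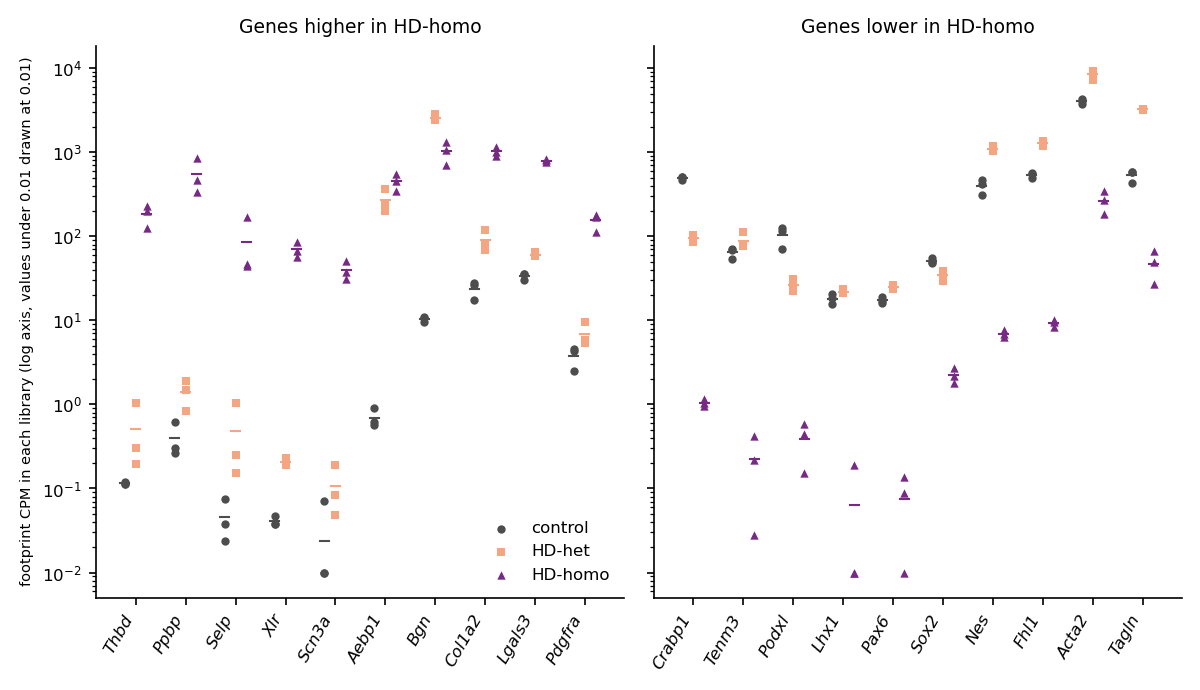
Footprint CPM in each library (points, log axis, values under 0.01 drawn at 0.01) with the mean of each line (short bars) for 10 genes higher and 10 lower in HD-homo. The 3 HD-homo libraries lie apart from the 3 control libraries for all 20 genes, while HD-het is near control for Xlr or Tenm3 and above HD-homo for Bgn (2549 against 1031 CPM).

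Ranked by difference in CPM, the rises outside the interferon list were mostly of secreted matrix. Col1a2, the alpha 2 chain of type I collagen (chr6:4505618-4541543), had 26.3, 27.8 and 17.7 CPM in control and 1166, 900 and 1002 CPM in HD-homo. The groups were far apart, the log2 fold change was 5.41 ± 0.25 (SE, adjusted p = 2.26e-08), and HD-het was at 89.7 CPM. Its partner Col1a1 was high in both lines (3332 ± 963 and 4547 ± 492 CPM, SD, n = 3), its libraries overlapped and it did not pass (adjusted p = 0.065). The type VI chains Col6a1 (102 to 1082 CPM), Col6a2 (49.7 to 901 CPM) and Col6a3 (log2 fold change 2.68) all rose. Col5a2 rose from 420 to 1294 CPM where HD-het had 9.76. Biglycan, Bgn, a small proteoglycan, went from 10.3 ± 0.665 to 1031 ± 303 CPM, and Lox, which cross-links collagen, from 119 to 1033 CPM. Both were higher still in HD-het, at 2549 and 2485 CPM.

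Within the collagens the direction differed between chains. Of 44 listed chains, 30 were tested, 12 higher and 9 lower, of which 3 and 2 passed the filter only through the line in which they were high, and the median log2 fold change was 0.38. Fibrillar and type VI chains were among the higher, while all 6 chains of type IV, the sheet-forming collagen of basement membranes, were lower: Col4a1 by -1.01, Col4a2 by -0.77, Col4a3 by -3.88, Col4a4 by -7.57, Col4a5 by -0.61 and Col4a6 by -3.41 on the log2 scale. This split by type was noticed after the values were seen. Of the type IV chains only Col4a6 was followed under other settings, and it kept its call. Col4a2 was the nearest to the threshold (edgeR adjusted p = 0.026). Col18a1 and Col7a1, also chains of basement membrane zones, had log2 fold changes of -2.81 and -1.91. Col15a1 of the same zones went the other way (1.30), and Col17a1 did not pass (0.57). Fibrillar Col11a1 had a log2 fold change of -2.96. Type III collagen, Col3a1, did not pass (430 and 350 CPM). The type IV genes lie in the genome as head-to-head pairs (Col4a1 with Col4a2, Col4a3 with Col4a4, Col4a5 with Col4a6).

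Of 105 other matrix glycoproteins and proteoglycans 79 were tested, 42 higher and 19 lower, with a median of 0.71 on the log2 scale, and 5 passed only through HD-homo. Aspn, a leucine-rich proteoglycan whose annotation overlaps Cenpp, had 0.533, 0.498 and 0.150 CPM in control and 116, 167 and 129 CPM in HD-homo. Fibulin 1, Fbln1, rose from 0.374 to 52.9 CPM, with HD-het at 22. The HD-homo libraries of both genes were far above the control libraries. The most abundant members did not follow: fibronectin, Fn1, had 2714 ± 894 and 2742 ± 757 CPM (SD, n = 3, adjusted p = 0.97). Thrombospondin 1, Thbs1, fell from 4116 ± 1059 to 1740 ± 368 CPM against 21478 CPM in HD-het. Control replicate 3 was the lowest control library for Thbs1 (2894 CPM), Fn1 (1708 CPM) and Col1a1 (2272 CPM). Of 103 matrix proteases, inhibitors and cross-linkers 54 were tested, 16 higher (29.6%) and 18 lower (33.3%), with 3 passing only through control. Adamtsl3 fell from 75.5 to 2.01 CPM and the protease Adamts12 from 19.5 to 1.48 CPM, both highest in HD-het (464 and 50.8 CPM).

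Fibroblast and pericyte markers did not move together. Of 16 such markers 13 were tested, 4 were higher (Col1a2, Dcn, Prrx1, Twist1), 2 lower (Acta2, Tagln) and 7 did not pass, among them Col1a1, Pdgfrb and Twist2. Their summed level was 10404 to 15522 CPM in control and 9797 to 13044 CPM in HD-homo. Thy1 and Rgs5 were below the floor in both lines. Decorin, Dcn, had 8.79, 7.87 and 5.17 CPM in control and 40.0, 36.8 and 44.3 CPM in HD-homo.

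Contractile genes fell. Serum response factor (SRF) drives actin and smooth muscle genes through the CArG box, and a list of such genes had 53 members, of which 50 were tested, 37 were lower, 3 higher (Fhl2, Aoc3, Tns1) and 10 not past the threshold, with a median log2 fold change of -0.70. Of the falls, 14 were of at least 2-fold. The summed level was 26029 to 28552 CPM in control and 14652 to 15819 CPM in HD-homo, without overlap. Acta2, smooth muscle actin (chr19:34240336-34255585), had the largest fall by difference, with 4114, 4354 and 3790 CPM in control and 344, 184 and 271 CPM in HD-homo. The ranges were far apart, the log2 fold change was -3.94 ± 0.21 (SE, adjusted p = 5.57e-08), and HD-het had 8461 CPM.

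Fhl1, a LIM-domain protein of muscle, had 574, 553 and 501 CPM in control and 9.99, 8.45 and 9.58 CPM in HD-homo, a 58.1-fold fall. Sorbs2, an adaptor of stress fibres, fell from 46.2 to 0.513 CPM, and transgelin, Tagln, whose annotation overlaps Pcsk7, from 533 to 47.3 CPM. HD-het was above control for Fhl1 (1291 CPM) and Tagln (3241 CPM) and HD-homo was below HD-het for Acta2, Fhl1, Sorbs2 and Tagln (adjusted p at most 2.9e-07). Vinculin, Vcl, which anchors actin at focal adhesions, had 1417, 1487 and 999 CPM in control and 735, 550 and 628 CPM in HD-homo. The light chain gene Myl9 fell 2.84-fold and the non-muscle myosin gene Myh9 1.34-fold, though Myh9 did not pass with offsets for GC content and length (log2 fold change -0.18). Srf itself did not pass (13.6 and 13.9 CPM, adjusted p = 0.85). Short footprints can map to several actin genes, so the values of Acta1, Actc1 and Actg2 beside Acta2 and Actg1 are uncertain.

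**Figure D3:**
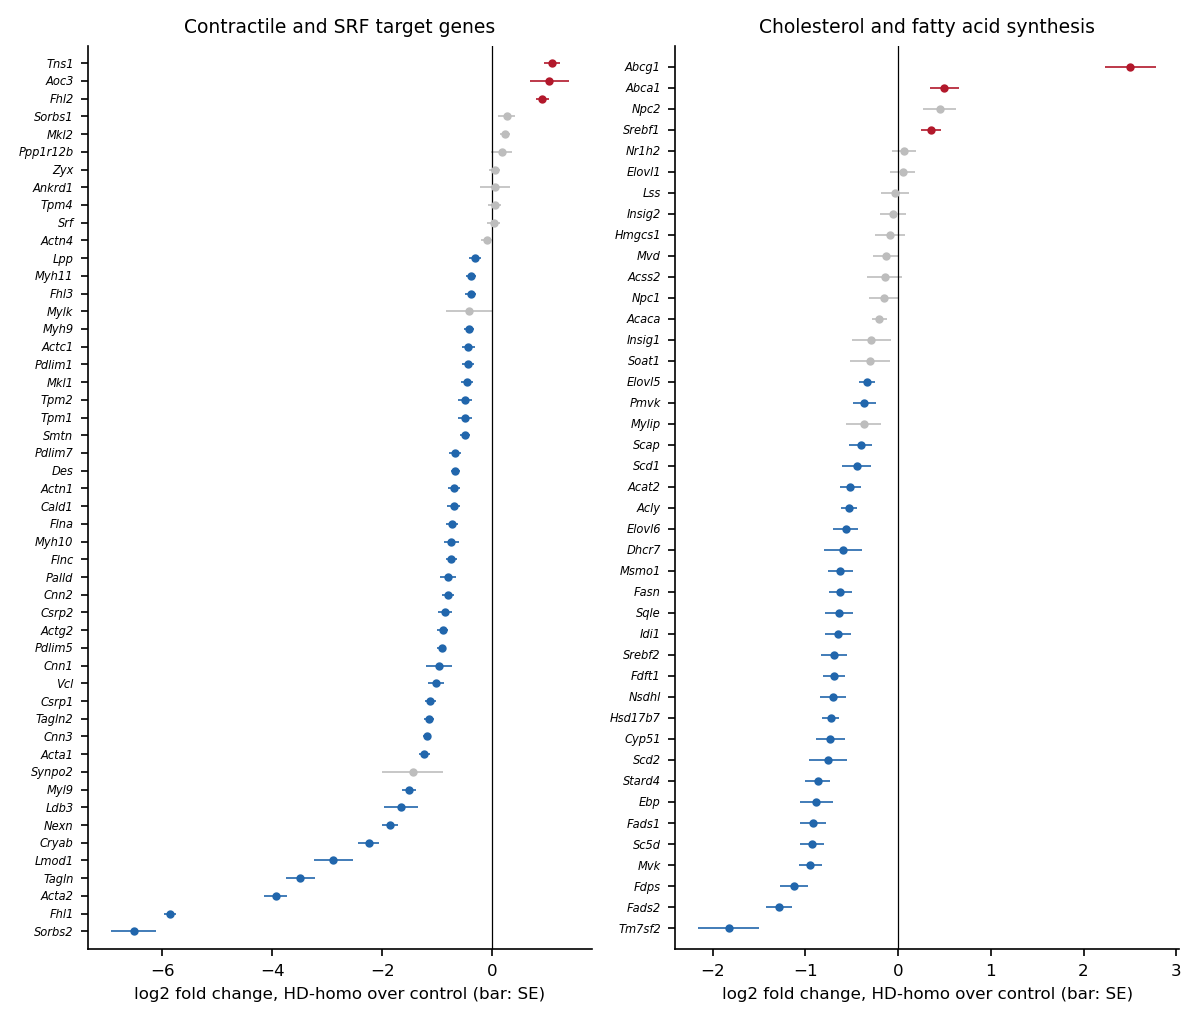
Log2 fold change, HD-homo over control, with its standard error for the 50 tested genes of the contractile and SRF target list and 42 tested genes of the cholesterol and fatty acid synthesis list, red where higher, blue where lower and grey where not past the threshold. Of the genes drawn, 37 and 26 were lower, from Sorbs2 (-6.53) and Tm7sf2 (-1.83) upward.

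Promoter windows of the list are shown because the CArG box, where SRF binds, can be read in them. RefSeq windows on GRCm38.p6 run from 250 bases before to 50 bases after a gene's start, printed 5′ to 3′ along the gene with an exact CArG box (2 C, then 6 letters that are A or T, then 2 G, on either strand) in capitals. Fhl1 lies at chrX:56779433-56779732 (+), Myl9 at chr2:156775214-156775513 (+), Cnn2 at chr10:79988350-79988649 (+) and Vcl at chr14:20929148-20929447 (+). The Fhl1 window belongs to an annotated start inside the gene, since the table used held none for its outermost start. Acta2, at chr19:34255324-34255623 (-), is shown as the gene with the largest fall by CPM difference, and its window held no exact match. The stretches ccctatatgg and ccttgtttgg in it come near the pattern. Inexact boxes were not marked or counted, so a window without capitals may still hold a CArG box.
Fhl1: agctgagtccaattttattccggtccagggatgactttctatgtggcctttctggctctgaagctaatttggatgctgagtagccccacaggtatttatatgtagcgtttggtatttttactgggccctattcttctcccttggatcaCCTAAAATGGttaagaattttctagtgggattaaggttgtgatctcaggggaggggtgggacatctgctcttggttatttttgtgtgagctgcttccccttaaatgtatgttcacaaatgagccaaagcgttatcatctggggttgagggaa
Myl9: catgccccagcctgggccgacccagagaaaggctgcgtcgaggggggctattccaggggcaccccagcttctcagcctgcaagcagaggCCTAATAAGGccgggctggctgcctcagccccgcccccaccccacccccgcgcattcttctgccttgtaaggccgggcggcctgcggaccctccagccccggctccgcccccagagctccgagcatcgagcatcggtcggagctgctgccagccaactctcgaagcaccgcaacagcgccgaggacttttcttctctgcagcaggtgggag
Cnn2: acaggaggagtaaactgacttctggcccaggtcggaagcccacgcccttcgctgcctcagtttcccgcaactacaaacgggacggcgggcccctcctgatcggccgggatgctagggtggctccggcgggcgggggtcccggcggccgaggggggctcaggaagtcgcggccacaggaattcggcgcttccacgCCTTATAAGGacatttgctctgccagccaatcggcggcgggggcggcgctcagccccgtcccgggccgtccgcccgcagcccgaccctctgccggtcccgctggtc
Vcl: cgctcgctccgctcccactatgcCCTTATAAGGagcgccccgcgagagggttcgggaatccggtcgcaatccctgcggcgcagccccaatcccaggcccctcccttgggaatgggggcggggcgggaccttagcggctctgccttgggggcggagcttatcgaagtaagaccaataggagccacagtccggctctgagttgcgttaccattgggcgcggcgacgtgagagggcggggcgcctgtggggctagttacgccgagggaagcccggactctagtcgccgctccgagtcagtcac
Acta2: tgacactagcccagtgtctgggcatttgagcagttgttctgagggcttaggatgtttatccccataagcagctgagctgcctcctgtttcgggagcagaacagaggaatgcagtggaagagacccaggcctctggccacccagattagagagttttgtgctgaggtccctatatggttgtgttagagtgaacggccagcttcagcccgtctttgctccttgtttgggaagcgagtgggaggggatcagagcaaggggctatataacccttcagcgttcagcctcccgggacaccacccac

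The CArG box began 102 bases before the annotated start in Fhl1, 161 in Myl9, 56 in Cnn2 and 227 in Vcl. Of 42 tested genes of the list with a window 9 held a match (21.4%), against 168 of 9770 tested genes with a window (1.72%) and 488 of 27025 genes in all (1.81%). Among the members that fell 7 of 31 held one, and of the 2 higher members with a window Fhl2 did. The list was made of known SRF targets, so the share says nothing independent about these lines. Matches of letters alone do not show a bound site. The TEAD site CATTCC was in 18 of the 42 windows (42.9%) and in 14.3% of tested genes, and the AP-1 site (TGACTCA or TGAGTCA) in 6 of 42 and in 4.51%. The motifs were chosen after the values were seen, 6 were searched on both strands, and overlaps between motifs were not removed.

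Many genes of cell surface adhesion also fell. Of 85 neuronal surface and synapse adhesion proteins 35 were tested, 22 lower and 4 higher, with a median log2 fold change of -1.21, and 5 of the lower and 2 of the higher passed the filter only through the line in which they were high. Megf10, an engulfment receptor, had 32.3, 40.2 and 21.6 CPM in control and 0.111, 0.343 and 0.442 CPM in HD-homo. Cadm1, a synaptic adhesion molecule, had 124, 127 and 84.4 CPM in control and 1.55, 1.60 and 1.28 CPM in HD-homo. The lines did not overlap for either gene, and HD-het was above control (202 and 286 CPM). Ncam1 fell from 353 ± 94.2 to 118 ± 39.6 CPM (SD, n = 3), and Mcam from 34.3 to 1.09 CPM. Teneurins Tenm2 and Tenm4 fell beside Tenm3 (log2 fold changes -1.70 and -3.49), while Flrt1, Flrt2, Lrrc4c and Megf6 were the 4 higher members.

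Of 114 cadherins and protocadherins 48 were tested, 20 lower (41.7%) and 11 higher (22.9%), with a median of -0.48. The filter was passed by 8 of them only through control and by 3 only through HD-homo. N-cadherin, Cdh2, had 588, 649 and 373 CPM in control and 84.4, 57.3 and 64.7 CPM in HD-homo, without overlap, and its log2 fold change was -2.96 ± 0.22 (SE, adjusted p = 8.32e-07). Dchs1, a large cadherin of planar polarity, fell from 16.4 to 0.240 CPM, and Cdh6 rose from 3.52 to 22 CPM. Integrins numbered 27, of which 20 were tested, 9 (45.0%) lower and 4 (20.0%) higher, namely Itga2, Itga2b, Itga11 and Itgb7. The filter was passed by 2 integrins only through control and by 1 only through HD-homo. The laminin receptor subunits Itga7 (72.3 to 0.986 CPM) and Itga3 (206 to 31.6 CPM) fell, beta 1, Itgb1, fell from 2674 to 1548 CPM, and Itgb7, known from lymphocytes, rose from 1.03 to 30.4 CPM. The integrin median (-0.26) changed sign under other settings, from -0.48 to 0.01.

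Of 80 axon guidance ligands and receptors 54 were tested, 23 lower (42.6%) and 11 higher (20.4%), against 22.6% and 23.5% of all rows tested. The filter was passed by 2 of them only through control and by 3 only through HD-homo. The secreted semaphorins Sema3c and Sema3e went the other way. Sema3c had 121, 127 and 75.1 CPM in control and 502, 337 and 648 CPM in HD-homo, and Sema3e rose from 1.30 to 34.3 CPM. Netrin receptors split, with Unc5c higher (0.987 to 16.1 CPM) and Unc5b lower (72.5 to 9.72 CPM). Dpysl3, which carries semaphorin signals to the cytoskeleton, fell from 199 ± 3.29 to 34.1 ± 6.93 CPM, and the receptor Plxna2 from 21.4 to 3.67 CPM. Of 135 neurotransmitter receptors only 17 were tested, 10 lower and 1 higher (Adra1b), and 4 of the lower ones passed the filter only through control. The purinergic receptor gene P2ry2 had 7.08, 7.16 and 7.24 CPM in control and 0.387, 0.114 and 0.751 CPM in HD-homo.

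The identity of the lines as neural precursors was also read from markers. Of 15 neural stem or progenitor markers 10 were tested, 7 lower and 3 higher, with a median log2 fold change of -0.74 and a summed level of 9645 to 9938 CPM in control and 6037 to 6566 CPM in HD-homo, most of it Vim. Nestin, Nes, the intermediate filament of neural stem cells (chr3:87971093-87980451), had 423, 466 and 306 CPM in control and 7.61, 6.93 and 6.40 CPM in HD-homo. Sox2, which keeps neural stem cells undifferentiated, had 49.3, 48.4 and 55.2 CPM in control and 2.74, 2.21 and 1.81 CPM in HD-homo. The HD-homo libraries of both genes lay far below the control libraries, and HD-het had 1096 and 34.2 CPM. Notch1, Msi1 and Vim were lower by less (log2 fold changes -1.05, -0.65 and -0.58), and the Notch1 libraries overlapped. Dlx2, a homeobox gene of the ganglionic eminences that form the striatum, rose from 9.22 to 19.8 CPM, Dlx1 from 2.70 to 4.00 CPM and Fabp7 from 1.12 to 3.03 CPM. Dlx1 did not pass when any of the 6 compared libraries was left out. Hes5 and Gsx2 had no counts in either line.

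Intermediate filaments as a list gave 14 lower and 5 higher of 27 tested and 65 in the table. The higher ones were the keratins Krt7, Krt13, Krt16, Krt18 and Krt80, while Krt8 and Krt19 were lower (log2 fold changes -1.35 and -1.48). Of 7 epithelial cell markers 4 were tested, 3 lower and 1 higher. Vim had 9141, 9288 and 9170 CPM in control and 6071, 5953 and 6484 CPM in HD-homo. The lamin gene Lmna fell from 1032 to 641 CPM. Among genes of growing neurites, Stmn2, a tubulin regulator, had 87.1, 8.65 and 6.05 CPM in control, HD-het and HD-homo, and Map1b, a microtubule-associated protein, 191, 62.2 and 17.5 CPM. Gap43, of the growth cone, had 5.22 CPM in control and 0.698 in HD-homo. Their means were lower in both mutant lines, and HD-homo was also below HD-het for Stmn2 (adjusted p = 0.031) and Map1b (8.6e-07) but not past the threshold for Gap43 (0.61). Kif5c, a neuronal kinesin, fell from 22.9 to 2.33 CPM with HD-het at 25.9.

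Position genes of the homeobox class changed in both directions. Of 39 HOX genes, which give cells their place along the body axis, 24 were tested, 12 were higher, 4 lower (Hoxb5, Hoxb8, Hoxc6, Hoxc8) and 8 not past the threshold, and 6 passed the filter only through HD-homo. Their summed level was 56.1 to 75.8 CPM in control and 75.9 to 114 CPM in HD-homo, against 2.94 to 3.87 CPM for HD-het. Hoxb9 had 24.3, 20.1 and 26.6 CPM in control and 30.2, 54.1 and 37.0 CPM in HD-homo, and Hoxb8 fell from 11.8 to 6.54 CPM. Anterior HOXA genes rose, with log2 fold changes of 5.56 for Hoxa2, 3.72 for Hoxa3, 3.46 for Hoxa5 and 3.25 for Hoxa4, while Hoxa6, Hoxa7, Hoxa9 and Hoxa10 did not pass. These HOXA genes are neighbours on chromosome 6. Of 128 other homeobox and PAX genes 55 were tested, 25 lower and 15 higher (5 passed only through control and 2 only through HD-homo), with Pax2 down from 13.8 to 0.738 CPM and Irx3 up from 4.27 to 40.3 CPM. Among SOX factors Sox11, of immature neurons, fell from 37.0 to 1.80 CPM, and Sox9 and Sox5 rose from 20.2 to 68.2 CPM and from 0.544 to 16.2 CPM.

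**Figure D4:**
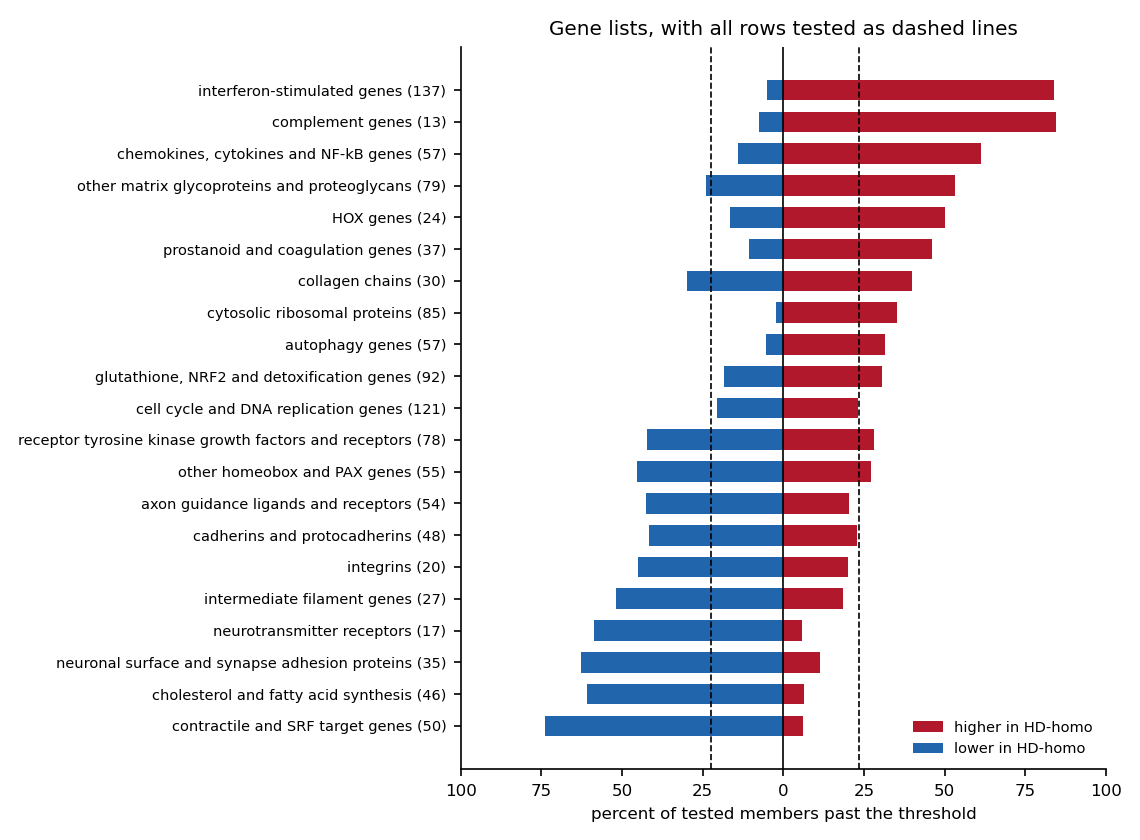
Percent of the tested members of 21 gene lists (number tested in parentheses) that were higher (right, red) or lower (left, blue) in HD-homo at an adjusted p under 0.05. The dashed lines mark the shares over all rows tested, 23.5% and 22.6%, and the bars run from contractile genes (74.0% lower) to complement genes (84.6% higher).

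Many cytokine, chemokine and NF-kB pathway genes outside the interferon list rose. NF-kB is the transcription factor that switches on many inflammatory genes, and of 81 listed genes 57 were tested, 35 higher and 8 lower, with a median log2 fold change of 0.92, and 3 passed only through HD-homo and 3 only through control. Il1rl1, the receptor for interleukin 33, had 831, 857 and 386 CPM in control and 2087, 1336 and 2131 CPM in HD-homo, the largest rise by difference outside the interferon list. The groups did not overlap (log2 fold change 1.42 ± 0.26, SE, adjusted p = 0.00108), and HD-het was at 1278 CPM (adjusted p against HD-homo 0.088). Il1rn, the antagonist of the interleukin 1 receptor, rose from 0.160 to 32.1 CPM and the receptor gene Il1r1 from 8.20 to 31.9 CPM. Cxcl1, a neutrophil-attracting chemokine, had 1.83, 1.78 and 1.80 CPM in control and 27.1, 69.2 and 29.8 CPM in HD-homo, with 0.690 CPM in HD-het. Ptx3, a secreted pattern receptor whose annotation overlaps Veph1, had 13.1, 13.8 and 8.85 CPM in control and 299, 289 and 358 CPM in HD-homo. All HD-homo libraries were above all control libraries for each of these genes. Nfkbia, which holds NF-kB in the cytoplasm, rose from 53.1 to 82.0 CPM, and Nfkb2 did not pass (adjusted p = 0.49).

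Promoter windows of Cxcl1 (chr5:90890995-90891294, +) and Ptx3 (chr3:66219637-66219936, +), whose footprints rose 23.3- and 26.5-fold, are shown with matches to the NF-kB site on either strand in capitals, counted from the same RefSeq windows.
Cxcl1: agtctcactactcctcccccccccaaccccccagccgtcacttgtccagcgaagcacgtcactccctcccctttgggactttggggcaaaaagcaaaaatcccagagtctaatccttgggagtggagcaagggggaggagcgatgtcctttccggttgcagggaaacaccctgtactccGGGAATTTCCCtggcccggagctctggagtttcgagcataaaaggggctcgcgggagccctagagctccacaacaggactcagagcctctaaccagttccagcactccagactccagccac
Ptx3: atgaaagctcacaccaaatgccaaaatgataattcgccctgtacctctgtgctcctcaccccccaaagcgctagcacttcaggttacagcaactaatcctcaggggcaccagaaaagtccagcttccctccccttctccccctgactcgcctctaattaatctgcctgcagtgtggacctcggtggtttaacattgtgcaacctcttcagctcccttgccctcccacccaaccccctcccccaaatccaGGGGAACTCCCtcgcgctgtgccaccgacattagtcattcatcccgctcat

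An NF-kB match was found in 13 of 44 tested genes of the list with a window (29.5%) and in 6.27% of tested genes. Among members that rose 11 of 29 held one (Bcl3, Ccl9, Csf1, Cxcl1, Il1r1, Il6, Nfkbia, Nfkbie, Ptx3, Rel and Tlr2), and none of 6 that fell did. The list was drawn up partly of known NF-kB targets, so these counts describe the list rather than the lines. For the interferon list the interferon-stimulated response element was in 48 of 111 windows (43.2%) and in 3.6% of tested genes.

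Many complement and prostanoid genes rose as well. Of 30 complement genes only 13 were tested, 11 higher and 1 lower (Clu, log2 fold change -1.94), and 5 passed the filter only through HD-homo. C3, the central complement component, had 0.495, 0.474 and 0.450 CPM in control and 14.6, 11.3 and 14 CPM in HD-homo. The sum over the list changed less, from 637 to 669 CPM in control to 654 to 810 CPM in HD-homo, since C1qbp, a mitochondrial protein that makes up most of it, did not pass. Of 60 prostanoid and coagulation genes 37 were tested, 17 higher and 4 lower (Ptger4, Lta4h, F2r, Gas6), with a median of 0.43, and 7 passed only through HD-homo and 2 only through control. Prostaglandin E synthase, Ptges, had 3 counts in control and 19, 13.9 and 21.5 CPM in HD-homo, a ratio of summed counts of 573 (95% interval 196 to 2782). Ptgr2, which breaks prostaglandins down, rose from 0.0706 to 21.0 CPM and prostacyclin synthase, Ptgis, from 2.11 to 40.7 CPM. The rate-limiting Ptgs2 rose 1.61-fold and tissue factor, F3, 1.60-fold, both below HD-het.

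Growth factor genes were split. Of 114 receptor tyrosine kinases, their ligands and binding proteins, 78 were tested, 33 lower (42.3%) and 22 higher (28.2%). Of these, 27 and 22 changed by at least 2-fold. The filter was passed by 9 tested genes only through control and by 3 only through HD-homo. The PDGF receptor gene Pdgfra had 4.38, 4.53 and 2.47 CPM in control and 181, 113 and 170 CPM in HD-homo. Fgf7 rose from 7.05 to 156 CPM and Igfbp6, which sequesters insulin-like growth factors, from 3.69 to 85.5 CPM. HD-het stayed low for Pdgfra (6.91 CPM) and Igfbp6 (5.89 CPM) and lay between the lines for Fgf7 (30.7 CPM). Pdgfra also marks oligodendrocyte precursors, and of 10 markers of that lineage 4 were tested, with Pdgfra and Sox10 (from 0.161 to 0.562 CPM, tested only through HD-homo) higher and none lower. Olig2, Mog and Nkx2-2 had no counts in either line. Pleiotrophin, Ptn, rose from 90.2 ± 22.5 to 357 ± 43.9 CPM. In the other direction Igf1 had 16.8, 19.6 and 18.2 CPM in control and 0.747, 0.647 and 0.839 CPM in HD-homo, and the receptor Axl fell from 412 to 163 CPM.

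In the Notch pathway 10 of 27 tested genes (37.0%) were lower and 3 (11.1%) higher, namely Notch4, Dlk2 and Hey2, out of 35 listed. The ligand Jag1 was down from 96.8 to 11.5 CPM against 384 in HD-het. Wnt genes were balanced, 19 higher (33.9%) and 18 lower (32.1%) of 56 tested, and Wnt10a rose from 0.196 to 22.5 CPM. TGF-beta and BMP genes were balanced as well, 19 higher (36.5%) and 17 lower (32.7%) of 52 tested. The receptors Tgfbr2 (31.7 to 136 CPM) and Tgfbr3 (2.75 to 70.0 CPM) rose and the BMP regulator Bmper fell (36.6 to 3.17 CPM). Cyclin D genes fell, Ccnd1 by a log2 fold change of -1.53 to 158 CPM and Ccnd2 from 91.0 to 22.9 CPM, and the annotation of Ccnd1 overlaps that of a neighbour. Cell cycle genes as a list did not stand out, with 28 higher and 25 lower of 121 tested and a median of -0.00.

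Genes of lipid synthesis fell, most of them by less than 2-fold. Of 47 genes of cholesterol and fatty acid synthesis 46 were tested, 28 lower and 3 higher, with a median log2 fold change of -0.52, and 5 of the falls were of at least 2-fold. Fdps, which makes farnesyl diphosphate, had 208, 198 and 251 CPM in control and 97.5, 117 and 88.0 CPM in HD-homo. Fads2, a fatty acid desaturase, had 115, 122 and 117 CPM in control and 54.2, 50.9 and 40.3 CPM in HD-homo. The control libraries were above the HD-homo libraries for both, with log2 fold changes of -1.12 ± 0.15 and -1.28 ± 0.14 (SE, adjusted p = 9.38e-05 and 2.37e-05). Fatty acid synthase, Fasn, fell from 540 to 350 CPM and Acly, which supplies acetyl-CoA, from 371 to 257 CPM. Srebf2, the regulator of the pathway, fell (-0.69), while Hmgcs1, a classical SREBP-2 target, did not pass (-0.09). The 3 higher members were the cholesterol exporters Abca1 and Abcg1 and the regulator Srebf1. HD-het was below control for Fdps (87.9 CPM), Fasn (278 CPM) and Acly (180 CPM), and the sum over the list was 3009 to 3741 CPM in HD-het and 2742 to 3356 CPM in HD-homo against 4044 to 4381 CPM in control. The sterol element TCACNCCAC was in the window of 1 of 33 tested members (Hmgcs1) and in 1.39% of tested genes.

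Among genes of high level, galectins parted. Galectin 3, Lgals3, rose from 33.8 ± 3.12 to 798 ± 34.1 CPM (SD, n = 3), with libraries close together in both lines (log2 fold change 4.56 ± 0.10, SE, adjusted p = 1.87e-10). Galectin 1, Lgals1, fell from 6262 ± 407 to 3219 ± 381 CPM (SD, n = 3), with no overlap. Tmsb4x, an actin-sequestering peptide gene, fell from 1855 to 537 CPM, and the chaperone Hsp90ab1 from 5657 to 3356 CPM. The small heat shock protein genes Hspb1 (65.6 to 17.6 CPM) and Hspb6 (29.3 to 7.80 CPM, annotation overlapping Lin37) fell. Their list of 86 tested chaperones held 23 lower (26.7%) and 9 higher (10.5%), against 22.6% and 23.5% of all rows tested. Cyp1b1, a cytochrome P450, had 0.457, 0.332 and 0.225 CPM in control and 72.2, 74.3 and 136 CPM in HD-homo. The NRF2 targets Hmox1 and Nqo1 rose from 52.8 to 160 CPM and from 150 to 317 CPM. Among 92 tested detoxification genes 28 were higher (30.4%) and 17 lower (18.5%), against 23.5% and 22.6% of all rows tested.

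Housekeeping lists changed little in size. Of 85 tested ribosomal protein genes 30 were higher and 2 lower (Rpl7l1, Rps29), none by 2-fold, and their median log2 fold change of 0.17 went to -0.00 once trends in GC content and length were removed. Rps3a1, the largest of these rises by CPM difference, had 3635, 3266 and 3521 CPM in control and 4091, 4192 and 4619 CPM in HD-homo, and it did not pass with those offsets. Autophagy genes gave 18 higher and 3 lower (Rb1cc1, Atg101, Sqstm1) of 57 tested, with a median of 0.13. Translation factors (13 higher and 11 lower of 73), oxidative phosphorylation subunits (14 and 16 of 76) and proteasome subunits (9 and 4 of 37) had medians of 0.03, 0.01 and 0.07.

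Position in the genome, which the choice of rows did not use, went with the direction of change. On chromosome 13, 34.5% of 505 tested genes rose and 10.3% fell, the median log2 fold change was 0.23, and on chromosome 2, 37.0% of 959 rose and 12.6% fell, with a median of 0.20. Chromosome 17 was the reverse, with 13% of 616 higher, 37.7% lower and a median of -0.21, followed by chromosome 12 (10.7% and 36.7% of 430, median -0.18) and chromosome 7 (15.5% and 31.4% of 893, median -0.17). The shifts were present in each HD-homo library. On the log2(CPM + 0.5) scale relative to the control mean, the chromosome 2 medians were 0.20, 0.16 and 0.21 and those of chromosome 17 were -0.15, -0.27 and -0.18. HD-het libraries were shifted the same way on chromosome 2 (0.19, 0.18 and 0.22) and chromosome 17 (-0.13, -0.12 and -0.13). They went the other way on chromosome 13 (-0.17, -0.15 and -0.13) and chromosome 7 (0.09, 0.11 and 0.11). In 4 equal stretches by gene order, chromosome 13 had medians of 0.15, 0.22, 0.26 and 0.24 and chromosome 17 of -0.22, -0.16, -0.22 and -0.30. Chromosome 7 was uneven, with -0.22 and -0.23 in the first stretches and -0.09 and -0.05 in the others, and so was chromosome 8, with -0.01 in the first stretch and 0.25, 0.25 and 0.15 in the others. A difference in chromosome copy number between the lines was not tested. The medians of chromosome 19, which holds Acta2, and chromosome 3, which holds Nes, were -0.10 and -0.08. The log2 fold changes of these genes were -3.94 and -5.83. A chromosome median does not describe copy number at a given gene, which was not tested either.

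**Figure D5:**
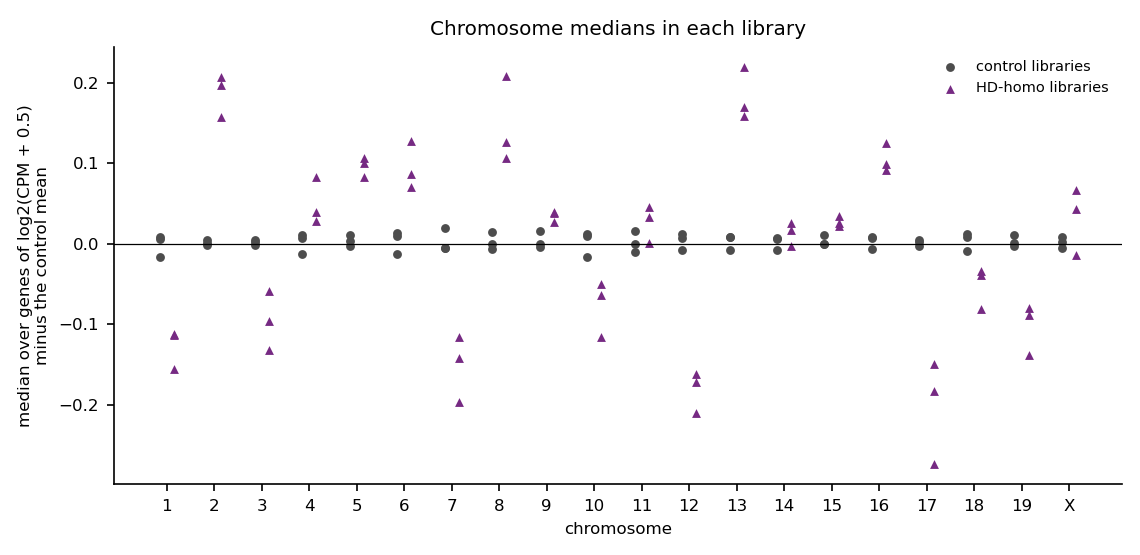
Median over the tested genes of each chromosome of log2(CPM + 0.5) minus the control mean, for each control library (circles) and each HD-homo library (triangles). HD-het libraries are not drawn. The control libraries lie near 0 because they are set against their own mean, and the 3 HD-homo libraries lie together above 0 for chromosomes 2 and 13 and below 0 for chromosomes 12 and 17.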

How the data were processed

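Ribosome footprints of 3 libraries each of the control, HD-het and HD-homo lines were analysed. The deposited values are raw counts per gene. The submitters' processing notes name cutadapt, Bowtie 1.0.1 and the mm10 build. The counting program and its use of strand are not given in the sources used here, so reads of overlapping genes cannot be told apart. Footprints are short, and reads of near-identical genes may have been split or lost.

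The members and gene lists were chosen with earlier results of these data known. Counts were tested in R 4.3.3 with edgeR 4.0.16 (glmQLFit, glmQLFTest, TMM factors), fitted over all 9 libraries so that the lines share an estimate of the spread, with the contrast HD-homo minus control and Benjamini-Hochberg adjustment over 12417 rows at a threshold of 0.05. Contrasts with HD-het came from the same fit. A mean under the floor of 3 counts per library was set to the floor when genes were ranked by ratio, and a ratio against a few counts is given from summed counts with an exact binomial interval. Of tested rows 99.3% matched RefSeq, and 18 had become dates and were not named. An older symbol stood on 148 tested rows while the current symbol had its own row, so those genes were split over rows.

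Named genes were the 10 largest changes each way by ratio and by difference outside the interferon list, up to 4 list members by ratio and 2 by difference with the most abundant, Htt and cell type markers, with at least 10 CPM in the higher line and no overlap of libraries for the ranked ones. List members given by log2 fold change or by name alone, and genes named for a promoter match, were chosen after their values were seen. Lists are described by counts and medians and were not tested. DESeq2 1.42.0, limma 3.58.1 (voom) and other filters, scalings and replicate sets were tried. A few genes are not reported here. The test was checked on simulated counts.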

Additional observations from a re-analysis of the deposited data

How the results depend on the processing

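Against 2919 genes higher and 2801 lower, RLE size factors gave 2909 and 2813, total counts without composition factors 3075 and 2551, DESeq2 2972 and 2876, limma-voom 2813 and 2649, only the 6 libraries compared 2710 and 2684, no filter 2978 and 3052, 10 counts in each of the 6 libraries 2420 and 2352, and GC content and length offsets 2711 and 3063. A change of at least 2-fold beside the p-value left 1103 and 995. Leaving out 1 library at a time gave 2241 to 2897 higher and 2310 to 2931 lower. Of 314 named genes past the threshold, 195 passed under every alternative. The fold threshold alone removed 116 of them, an adjusted p under 0.01 removed 42 and leaving out control replicate 1 removed 24. The 2 that reversed did so under the GC content and length offsets, Eif3e to -0.092 and Rps27l to -0.066 on the log2 scale without passing the threshold, and the cause was not tested. Notch1 did not pass without control replicate 2 or without HD-homo replicate 3, and Fat1, Pcolce, Csf1, Msi1 and Dlx1 also lost their calls under some alternatives. The medians of the contractile list stayed between -0.73 and -0.61, of the lipid list between -0.57 and -0.45, of the cytokine list between 0.64 and 0.97 and of the collagens between 0.15 and 0.59.

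Replicate numbers were shared between the lines, but with a replicate block the counts were 2770 and 2665. Deviations of same-numbered libraries from their line means correlated at 0.01, -0.52 and -0.11, so the numbers were not taken as pairs. Differently numbered libraries ranged from -0.44 (control 3 with HD-homo 1) to 0.57 (control 2 with HD-homo 1), with control 3 and HD-homo 2 at 0.48. Whether any of these libraries shared a batch was not tested. Genes near the floor in a line have ratios limited by depth, and fitted fold changes there depend on the prior count.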

Other observations

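Some lists with few expressed members are given here as values. Of 34 S100, annexin and galectin genes 24 were tested, 10 higher and 6 lower. S100a16, a calcium-binding protein gene, had 5.94, 5.86 and 4.16 CPM in control and 81.7, 77.0 and 89.3 CPM in HD-homo, and annexin A8, Anxa8, rose from 103 to 346 CPM, with HD-het at 2.59 and 282 CPM. Of 361 solute carriers 187 were tested, 57 lower (30.5%) and 32 higher (17.1%). The glutamine transporter Slc38a1 had 128, 138 and 135 CPM in control and 8.27, 8.87 and 4.68 CPM in HD-homo, while Slc43a3 had 2 counts in control and averaged 26.1 CPM in HD-homo, a ratio of summed counts of 1236 (exact 95% interval 342 to 10216, counting error only). Of 60 imprinted genes 35 were tested, 15 lower (42.9%) and 10 higher (28.6%). Grb10, an adaptor of insulin signalling, rose from 263 ± 23.3 to 809 ± 33.6 CPM (SD, n = 3). Zinc finger genes of the ZFP type gave 56 lower (19.2%) and 37 higher (12.7%) of 292 tested, with a median log2 fold change of -0.09. Both shares were under those of all rows tested (22.6% lower and 23.5% higher).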
